A study of Homo sapiens with 6 samples.

Results

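The E2F transcription factor genes *E2F1* to *E2F8* and the RB pocket protein genes *RB1* and *RBL1* were examined in wild-type (WT) and *FGFR2* knockout (KO) HaCaT keratinocytes, a spontaneously immortalized human keratinocyte line. These 10 genes were taken by symbol from the 21475 genes used, and all 10 were among the 12241 genes that were tested. RNA was collected from 3 WT and 3 *FGFR2* KO cell lines, 1 library per line, grown in medium with serum and without an added stimulus. The KO lines came from cells electroporated with Cas9 and a single guide RNA against exon 7 of *FGFR2* and were each expanded from a single sorted cell, so that the KO group holds a few clonal lines and not repeated cultures of one line. The WT lines of the study comprised the starting population and clones, and its descriptions differ on whether the starting population was among the sequenced lines. The labels do not say which numbered line of the study is which replicate. The p-values therefore set the difference between the groups against the spread between these lines.

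E2F proteins bind DNA at promoters of genes needed for S phase, mostly as dimers with a DP partner. *E2F1*, *E2F2* and *E2F3* encode the activators, which the RB protein holds inactive until cyclin-dependent kinases phosphorylate it. *E2F4*, *E2F5* and *E2F6* encode repressors, the first pair acting mainly with the pocket proteins p107 (*RBL1*) and p130 (*RBL2*) and the last with polycomb proteins, without a pocket protein. *E2F7* and *E2F8* encode atypical E2Fs, which bind DNA without a DP partner and repress the same promoters later in the cycle. Several of these genes are themselves targets of E2F. In keratinocytes, exit from the cycle at the onset of differentiation goes along with loss of E2F activity. A level in bulk RNA does not tell a larger share of cells in one phase of the cycle from more RNA per cell.

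Expression was deposited as FPKM, which scales the fragments of a gene to its length and to the size of the library, and the library size estimated from the smallest steps between low values was 67500000 to 87500000 fragments. *FGFR2* itself had 15.0 to 39.7 FPKM in WT and 2.26 to 4.31 FPKM in KO libraries. All 6 keratinocyte markers were above 1 FPKM in each library, with a summed level of 10260 to 16940 FPKM in WT and 13770 to 25900 FPKM in KO. The other marker lists were low, with a sum of 7.99 to 33.2 FPKM in WT and 6.91 to 12.6 FPKM in KO for 6 fibroblast genes, 0.893 to 2.44 and 0.708 to 1.07 FPKM for 5 melanocyte genes, 0.835 to 1.90 and 0.862 to 0.946 FPKM for 5 leukocyte genes, and 18.2 to 27.2 and 5.82 to 17.5 FPKM for 3 endothelial genes. *SOX10* was at 0 FPKM in all 6 libraries. WT replicate 2 stood apart in several of these genes, with 15.5 FPKM of *DCN* and 4.92 FPKM of *CDH5* against at most 1.66 and 0.128 FPKM in any other library, 2 genes chosen after their values were seen. Mitochondrial transcripts took 21.5% to 27.6% of the FPKM in WT and 11.9% to 23.7% in KO libraries. The part of these differences in the results below was not tested.

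The promoters of these genes are shown first, because several genes of this family are textbook targets of E2F. The motif was searched on both strands as 4 words of 8 letters, TTTCCCGC, TTTCGCGC, TTTGCCGC and TTTGGCGC, in RefSeq windows of 300 bases that hold 250 bases before and 50 bases after the start site (GRCh38.p14). None of the matches shown overlaps another. Of the 10 genes, 8 had a window and 4 of these held a match. Across all 35116 windows the share was 3.3%, and across the 9809 tested genes with a window it was 6.9%. The 100 bases before the start site of these 4 genes follow, read 5′ to 3′ in the direction of transcription, with the matches in capitals.
*E2F1*, minus strand, chr20:33686386-33686485: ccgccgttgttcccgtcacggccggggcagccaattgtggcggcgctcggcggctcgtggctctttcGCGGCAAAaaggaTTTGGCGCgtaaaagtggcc
*RBL1*, minus strand, chr20:37095998-37096097: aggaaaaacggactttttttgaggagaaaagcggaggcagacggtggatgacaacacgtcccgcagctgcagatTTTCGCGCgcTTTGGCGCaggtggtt
*E2F2*, minus strand, chr1:23531234-23531333: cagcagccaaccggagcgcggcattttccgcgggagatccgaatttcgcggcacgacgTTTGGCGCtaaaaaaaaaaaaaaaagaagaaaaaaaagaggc
*E2F3*, plus strand, chr6:20401779-20401878: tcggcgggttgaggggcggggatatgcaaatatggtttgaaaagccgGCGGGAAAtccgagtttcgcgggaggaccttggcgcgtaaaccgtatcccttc

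*E2F1* and *RBL1* each held 2 matches, beginning 33 and 20 bases before the start in *E2F1* and 26 and 16 bases before it in *RBL1*. *E2F2* and *E2F3* held 1 match each, 42 and 53 bases before the start. The windows of *E2F4*, *E2F6* and *E2F7*, and a window at a second start site of *E2F3*, held none of the 4 words. The window given for *RB1* lies at a start site 172706 bases into the gene and held none either. No window was used for *E2F5* and *E2F8*. A match is a string of letters and not a measured binding site.

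In WT cells the 10 genes spanned a wide range of levels. *E2F4* was the highest with 89.1 ± 6.12 FPKM (SD, n = 3), followed by *RB1* with 60.9 ± 6.91 FPKM and *E2F2* with 21.1 ± 3.04 FPKM, and these 3 did not overlap in any library. *E2F8* (15.1 ± 0.341 FPKM) and *RBL1* (13.7 ± 4.69 FPKM) overlapped, as did *RBL1* and *E2F7* (8.24 ± 2.33 FPKM), and *E2F7* and *E2F1* (5.90 ± 1.59 FPKM). *E2F6* (3.60 ± 0.084 FPKM), *E2F3* (2.05 ± 0.139 FPKM) and *E2F5* (0.655 ± 0.229 FPKM) followed without overlap. *E2F2* was thus the most abundant activator transcript in WT cells, at a level per length above that of *E2F1* and *E2F3* in each library. In KO cells the order kept *E2F4*, *RB1* and *E2F2* at the top, and in the order *E2F2*, *RBL1*, *E2F8*, *E2F1* and *E2F7* each range overlapped with its neighbours' within these 5 genes. *E2F7* and *E2F6* did not overlap, and *E2F6* and *E2F3* did. Levels were compared between genes by their range over the 3 libraries only, with no test.

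All 10 genes had a higher mean on the log2 scale in the *FGFR2* KO libraries, where 60.6% of all tested genes did. With limma on log2(FPKM + 0.5) and Benjamini-Hochberg adjustment, 0 of the 10 genes passed an adjusted p of 0.05 together with an absolute log2 fold change of 0.5, and 0 of the 12241 tested genes did (0%), with a smallest adjusted p of 0.261. With library weights, a fit in which WT replicate 1 carried 89.7% of the WT weight, 1396 genes passed with limma, *E2F1* (0.98) and *E2F3* (0.75) among them. An unadjusted threshold (p of at most 0.05 and the same fold change) was therefore used to describe the genes. It was passed by 4 of the 10 genes, *E2F1*, *E2F3*, *E2F7* and *RBL1*, all higher in KO, whereas 10.2% of all tested genes passed it with a higher level (1251 genes) and 2.33% with a lower level (285 genes). With median-of-ratios scaling these numbers were 818 and 488, and the same 4 of the 10 genes passed. In 7 of the 10 genes the KO range lay entirely above the WT range, against 18.3% of tested genes, and in 0 it lay entirely below, against 5.77%. For a single gene, exact permutation of 3 against 3 libraries has a smallest p of 0.1. The median log2 fold change was 0.42 over the 10 genes and 0.09 over all tested genes.

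**Figure D1:**
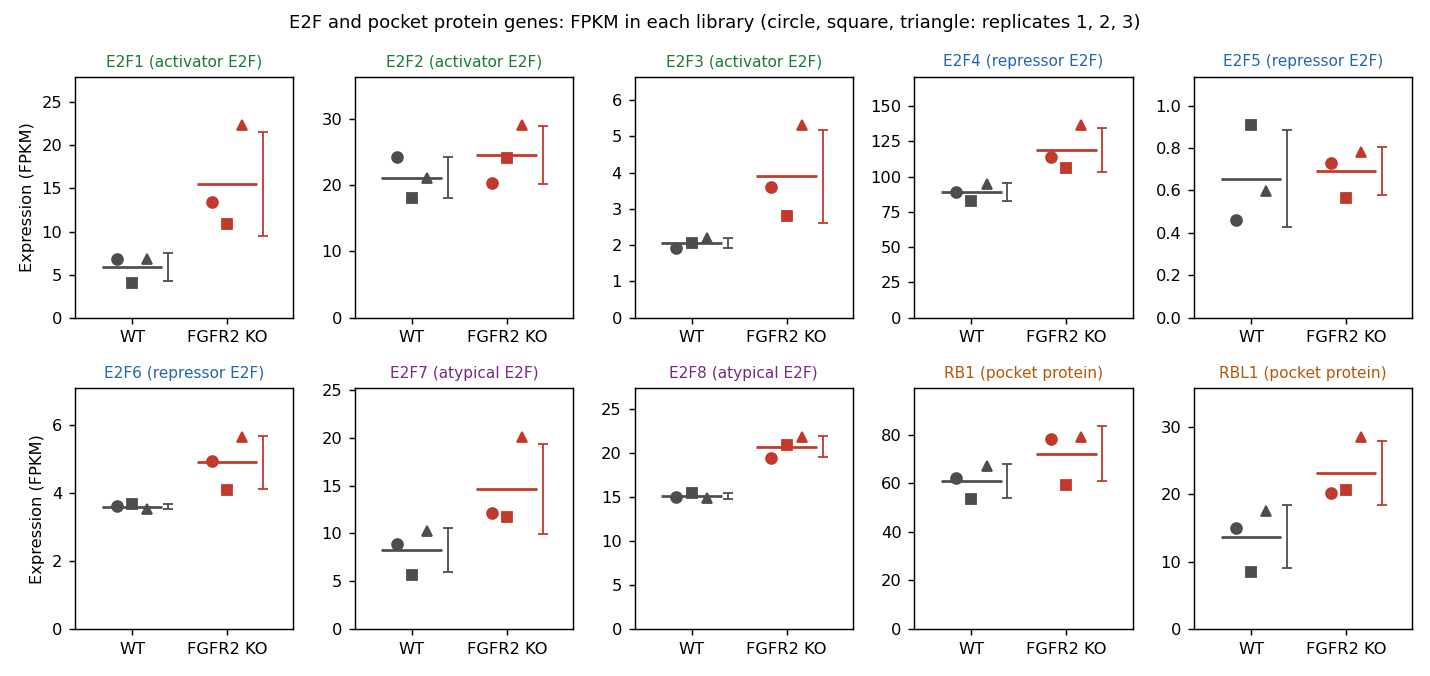
Expression in FPKM (y axis, from 0, scaled per panel) of the 10 genes in 3 WT (grey) and 3 *FGFR2* KO (red) libraries; circles, squares and triangles are replicates 1, 2 and 3, horizontal bars the means and vertical bars the SD. All KO points lie above all WT points in *E2F1*, *E2F3*, *E2F4*, *E2F6*, *E2F7*, *E2F8* and *RBL1*, and KO replicate 3 is the highest library in 9 of the 10 panels.

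Among the activators, *E2F1* and *E2F3* were higher in KO and *E2F2* was not separated. *E2F1* (ENSG00000101412, chromosome 20 from 33675477 to 33686385 in GRCh38), the E2F most closely tied to S phase entry, had 6.81, 4.06 and 6.83 FPKM in WT and 13.4, 10.8 and 22.4 FPKM in KO, in the order of the replicate numbers, as for all genes below. Each KO line lay above each WT line, with the lowest value in WT replicate 2 and the highest in KO replicate 3. The ratio of the means was 2.63 and the log2 fold change 1.29 (standard error 0.30, 95% interval 0.58 to 2.0, adjusted p = 0.261 with limma; exact permutation p = 0.1). Of all tested genes, 99.4% had a log2 fold change at or below that of *E2F1*. From the estimated depth and a transcript of 2690 bases, these values correspond to 737 to 5189 fragments, a counting error of 1.39% to 3.68%, which is far below the spread between lines. Leaving out WT replicate 2 gave a log2 fold change of 1.07 and leaving out KO replicate 3 gave 1.01.

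*E2F3* (ENSG00000112242, chromosome 6 from 20401879 to 20493714) had 1.91, 2.05 and 2.19 FPKM in the WT and 3.61, 2.79 and 5.31 FPKM in the KO libraries. The WT values were close together and all KO values lay above them. The ratio of the means was 1.90 and the log2 fold change 0.75 (standard error 0.24, adjusted p = 0.261 with limma; exact permutation p = 0.1), and *E2F3* passed the unadjusted threshold with all libraries but not without WT replicate 1, where it was 0.71. *E2F2* (ENSG00000007968, chromosome 1 from 23506438 to 23531233) had 24.2, 18.1 and 21.1 FPKM in WT and 20.3, 24.1 and 29.0 FPKM in KO, so that the groups overlapped. Its log2 fold change of 0.20 had a 95% interval of -0.22 to 0.62 and turned to -0.08 with library weights. Within the summed FPKM of the 3 activators, *E2F1* made up 20.1 ± 3.00% in WT and 34.7 ± 5.47% in KO (SD, n = 3), and this share, which does not depend on scaling between libraries, was higher in each KO line than in each WT line. *E2F2* made up 13.6% to 16.1% of the summed FPKM of *E2F1* to *E2F8* in WT and 10.8% to 13.3% in KO.

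Among the repressors, *E2F4* and *E2F6* were separated between the groups and *E2F5* was not, and 0 of the 3 passed the unadjusted threshold. *E2F4* (ENSG00000205250, chromosome 16 from 67192155 to 67198918), which acts mainly with p107 and p130, had 89.3, 82.9 and 95.1 FPKM in WT and 114.2, 105.9 and 136.5 FPKM in KO. The groups did not overlap, with a ratio of means of 1.33 and a log2 fold change of 0.41 (95% interval 0.07 to 0.74), under the fold minimum. *E2F6* (ENSG00000169016, chromosome 2 from 11444375 to 11466177) had 3.61, 3.68 and 3.52 FPKM in WT and 4.95, 4.10 and 5.66 FPKM in KO, again without overlap, and a log2 fold change of 0.39 (95% interval -0.02 to 0.80). *E2F5* (ENSG00000133740, chromosome 8 from 85177154 to 85217158) was the lowest of the family, with 0.461, 0.907 and 0.598 FPKM in WT and 0.728, 0.565 and 0.780 FPKM in KO. Its groups overlapped and its log2 fold change was 0.06 (95% interval -0.52 to 0.64), with a sign that turned without WT replicate 1 (-0.07) and after chromosome medians were taken out (-0.15). *E2F5* overlaps the gene *RBIS* on the opposite strand, and GENCODE lists 2 pseudogenes of *E2F3*, 1 of *E2F4* and 4 of *E2F6* that could share reads with their parent genes and were not analysed here, so that these levels are less certain.

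The ratio of *E2F1* to *E2F4*, an activator to a repressor within the same library, was 0.076, 0.049 and 0.072 in the WT and 0.118, 0.102 and 0.164 in the KO libraries. It was higher in each KO line, with a log2 difference of 0.96 (two-sided exact permutation p = 0.1). *E2F4* nevertheless remained the largest part of the family, with 61.2 ± 1.5% of the summed FPKM of *E2F1* to *E2F8* in WT and 58.5 ± 1.99% in KO, shares that overlapped between the groups. The summed FPKM of the 8 genes was 132.8 to 154.4 in WT and 180.8 to 241.7 in KO.

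Both atypical E2F genes lay above WT in each KO line. *E2F7* (ENSG00000165891, chromosome 12 from 77021248 to 77065569) had 8.85, 5.67 and 10.2 FPKM in WT and 12.1, 11.7 and 20.2 FPKM in KO. Its ratio of means was 1.78 and its log2 fold change 0.79 (standard error 0.28, 95% interval 0.14 to 1.44). It no longer passed the unadjusted threshold without WT replicate 2 (0.56) or without KO replicate 3 (0.55). *E2F8* (ENSG00000129173, chromosome 11 from 19224063 to 19241620) had similar values within each group, with 15.0, 15.5 and 14.9 FPKM in WT and 19.4, 20.9 and 21.9 FPKM in KO. Its ratio of means was 1.37 and its log2 fold change 0.44 (standard error 0.13, 95% interval 0.15 to 0.73), which missed the fold minimum of 0.5 and not the unadjusted p. Leaving out single libraries gave 0.40 to 0.49. *E2F8* overlaps the antisense gene *CSRP3-AS1*, not analysed here, and the sources used here do not say whether the pseudoalignment took strand into account.

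**Figure D2:**
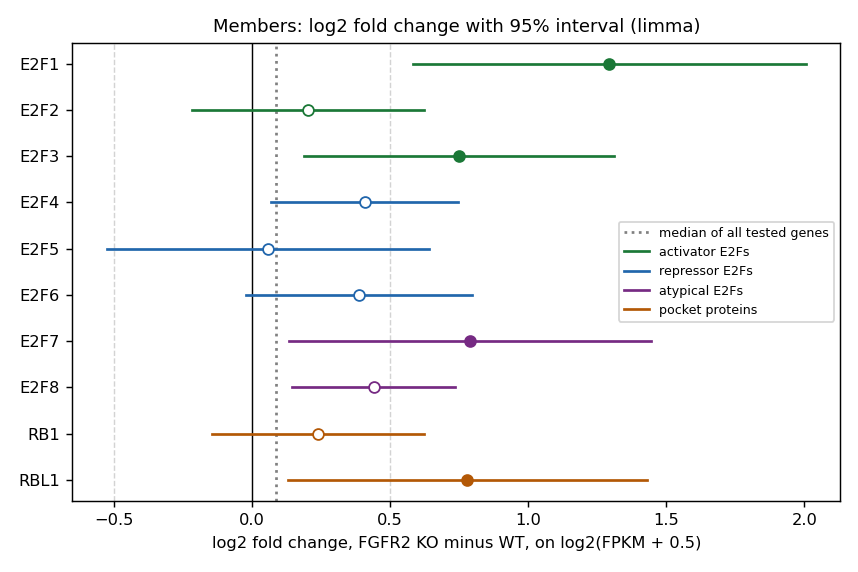
Log2 fold change (x axis, *FGFR2* KO minus WT, on log2(FPKM + 0.5)) of the 10 genes with 95% intervals from limma over 3 WT and 3 KO libraries, coloured by class; filled circles passed the unadjusted threshold, dashed lines mark -0.5 and 0.5, and the dotted line marks the median of all tested genes, 0.09. *E2F1* lies farthest to the right at 1.29, and the intervals of *E2F2*, *E2F5*, *E2F6* and *RB1* include 0.

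Of the pocket protein genes, *RBL1* was separated between the groups and *RB1* was not. *RB1* (ENSG00000139687, chromosome 13 from 48303744 to 48599436), the retinoblastoma gene, had 62.1, 53.5 and 67.2 FPKM in WT and 78.2, 59.4 and 79.3 FPKM in KO, with KO replicate 2 inside the WT range. Its log2 fold change was 0.24 (95% interval -0.15 to 0.62, exact permutation p = 0.3). *RBL1* (ENSG00000080839, chromosome 20 from 36996349 to 37095997), which encodes p107 and is itself an E2F target, had 15.0, 8.46 and 17.6 FPKM in WT and 20.2, 20.7 and 28.5 FPKM in KO, a ratio of means of 1.69. The groups did not overlap and the log2 fold change was 0.78 (standard error 0.28, adjusted p = 0.261 with limma; exact permutation p = 0.1). WT replicate 2 was low, and without it the log2 fold change was 0.48. *RBL1* did not pass the unadjusted threshold there, nor without KO replicate 3 (0.62) or with quantile normalization (0.67). The ratio of *RBL1* to *RB1* was 0.242, 0.158 and 0.261 in WT and 0.258, 0.348 and 0.360 in KO, with overlapping groups (log2 difference 0.56, two-sided exact permutation test, p = 0.2). *RB1* overlaps *LPAR6* and *RCBTB2* on the opposite strand.

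*E2F1* and *RBL1* lie on the same chromosome, whose 342 tested genes had a median log2 fold change of 0.15. After the median of each chromosome had been removed from each library, an alternative chosen after the data had been seen, the log2 fold changes were 1.13 for *E2F1* and 0.62 for *RBL1*. Scaling to the FPKM of nuclear genes, which removes the differing mitochondrial share, gave 1.22 for *E2F1*, 0.68 for *E2F3*, 0.71 for *E2F7* and 0.70 for *RBL1*. With this scaling the KO range still lay above the WT range in 7 of the 10 genes. It lay above in 1901 of the 12241 tested genes and below in 951.

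Across libraries, the log2 differences from the WT mean were largest in KO replicate 3, where they reached 1.87 for *E2F1*, 1.28 for *E2F7*, 1.19 for *E2F3* and 1.10 for *RBL1*. In KO replicate 2 the same genes were at 0.86, 0.52, 0.37 and 0.64, and in KO replicate 1 at 1.16, 0.57, 0.69 and 0.61. WT replicate 2 was the lowest library for 6 of the 10 genes, with -0.46 for *E2F1*, -0.47 for *E2F7* and -0.60 for *RBL1*.

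**Figure D3:**
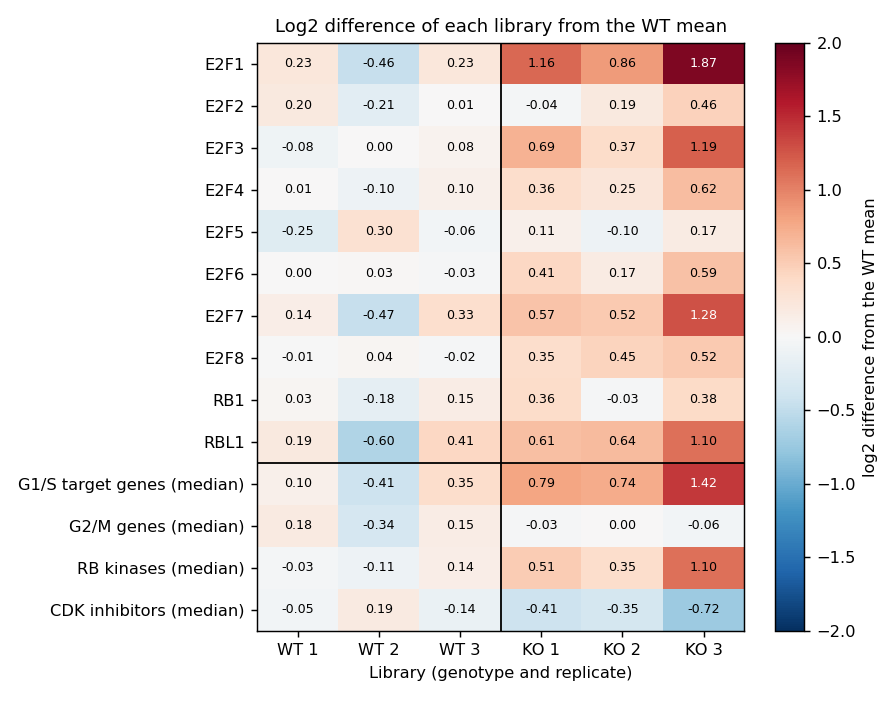
Log2 difference of each library (columns, 3 WT and 3 *FGFR2* KO) from the WT mean for the 10 genes and, below the line, for the medians of 4 lists of related genes; the color scale runs from -2 to 2. *E2F1* is at 0.86 to 1.87 in KO, the median of the G1/S target genes at 0.74 to 1.42, and the median of the G2/M genes between -0.06 and 0.00.

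The partners and regulators of these factors were described from 8 lists. The lists were chosen with earlier results of these data known, so their counts are no independent evidence. Of the DP partners and p130, *TFDP1*, the main DP partner, was higher, with 157.3, 152.7 and 212.0 FPKM in WT and 285.5, 212.4 and 328.5 FPKM in KO, a log2 fold change of 0.65. The lowest KO value lay just above the highest WT value. *TFDP1* did not pass without WT replicate 1 or without KO replicate 3. *TFDP2* was at a log2 fold change of -0.26 with overlapping groups, which is also the median of the 3 genes, and this median was -0.08 without WT replicate 2. *RBL2*, which encodes p130, the pocket protein of resting cells, had 49.4, 65.5 and 41.9 FPKM in WT and 35.9, 44.5 and 31.9 FPKM in KO, a log2 fold change of -0.47 with overlapping groups. Together with *RB1* and *RBL1*, the pocket protein transcripts in KO were 17.4 ± 2.77% *RBL1* and 28.4 ± 6.62% *RBL2*, against 10.8 ± 3.73% and 41.2 ± 9.33% in WT (SD, n = 3). The *RBL1* share was higher in each KO line than in each WT line, whereas the *RBL2* share overlapped.

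Of the 8 genes of the kinases that phosphorylate RB, 5 passed the unadjusted threshold, all higher in KO, against 10.2% of all tested genes. The list median was 0.66. *CCNE1* and *CCNE2*, the cyclins E, had log2 fold changes of 1.11 and 1.02, *CDK4*, a partner of the D cyclins, 1.03, *CDK2*, the partner of cyclin E, 0.75, and *CCND3* 0.56. *CDK4* had 47.2, 54.9 and 75.5 FPKM in WT and 106.4, 80.9 and 197.4 FPKM in KO. *CCND1*, the most abundant D cyclin with 315.5 to 496.6 FPKM in WT and 338.4 to 450.7 FPKM in KO, overlapped between the groups, as did *CCND2* and *CDK6*. Without KO replicate 3, 2 of the 8 passed, and without WT replicate 1, 3 passed. Over all tested genes, 535 of 12262 and 766 of 12255 passed with a higher level in these fits. Of the 7 CDK inhibitor genes, 2 passed, both lower in KO, against 2.33% of all tested genes. All 7 had a lower mean (list median -0.37), as did 4821 of all 12241 tested genes. *CDKN2B*, which encodes p15 and responds to TGF-β, had 36.6, 47.5 and 36.1 FPKM in WT and 25.1, 21.4 and 7.07 FPKM in KO, a log2 fold change of -1.31. *CDKN1A*, which encodes p21 and is a p53 target, had 103.8, 107.5 and 111.5 FPKM in WT and 94.9, 70.1 and 38.1 FPKM in KO, a log2 fold change of -0.76. *CDKN1C* was at 9.34 FPKM in WT replicate 2 and at or below 0.697 FPKM in the other 5 libraries. Without WT replicate 2, 0 of the 6 inhibitor genes still tested passed the unadjusted threshold, and 1 of 7 passed without WT replicate 1, WT replicate 3 or KO replicate 3. In the same order of fits, 160, 194, 445 and 95 of all tested genes passed with a lower level.

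The targets of E2F were described by phase of the cycle, and the difference between the lists was not tested. Of 37 genes of the G1/S transition and DNA synthesis that are textbook E2F targets, 36 passed the unadjusted threshold. All 36 were higher in KO, and 10.2% of all tested genes passed with a higher level. The list median was 0.95. Many of the 37 genes were already known to be higher in KO from an earlier analysis of these libraries. The count of 36 is therefore no independent evidence. *CDCA7* had the largest log2 fold change, 1.58, with 4.21, 3.62 and 5.26 FPKM in WT and 13.4, 9.0 and 21.9 FPKM in KO. It was followed by *MCM6* (1.56), a subunit of the replicative helicase, *CDC45* (1.55), its activator, and *CHAF1B* (1.46), a chromatin assembly factor. The gene that did not pass was *CCNA2*, the cyclin of S and G2 phase, at -0.00 with 26.0 to 34.2 FPKM in WT and 26.9 to 33.2 FPKM in KO, a gene picked out with its values known. The count was 30 of 37 without WT replicate 2, 27 without KO replicate 3 and 32 with median-of-ratios scaling. In the same order of settings, 977, 535 and 818 of all tested genes passed with a higher level.

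Of 20 genes of G2 and mitosis, which the pocket proteins repress through the DREAM complex in resting cells, 0 passed the unadjusted threshold. Of all tested genes, 10.2% passed with a higher level and 2.33% with a lower level. The list median was -0.05, with 7 genes higher and 13 lower, where 60.6% of all tested genes were higher. This median turned to 0.01 without WT replicate 1. *FOXM1* and *AURKB* had the highest log2 fold changes, 0.36 and 0.35, and *CENPF* the lowest, -0.44, and these genes were chosen after their values were seen. *MKI67*, which encodes the proliferation marker Ki67 and was likewise chosen after its values were seen, had 144.1, 88.1 and 131.8 FPKM in WT and 66.4, 124.6 and 88.0 FPKM in KO, with overlapping groups. Without WT replicate 2, 3 of the 20 passed, without KO replicate 2, 2 passed, and with library weights 4 passed, all lower in KO. Over all tested genes, 160 of 12180, 509 of 12229 and 495 of 12241 passed with a lower level in these fits.

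Of the DREAM core and B-MYB, 2 of 6 genes passed, both higher in KO, against 10.2% of all tested genes. These were *MYBL2* (log2 fold change 0.76), which encodes B-MYB, and *LIN52* (0.57). The count was 0 of 6 without WT replicate 2, without KO replicate 3, with no filter on low values, with library weights, with chromosome medians removed, and with median-of-ratios, nuclear or quantile scaling. It was 1 of 6 without a mean-variance trend and without WT replicate 1, KO replicate 1 or KO replicate 2. Of 12 genes of the polycomb complex that *E2F6* joins, 2 passed, both higher, *WDR5* (0.96) and *L3MBTL2* (0.56), with a list median of 0.18. This share is near the 10.2% of all tested genes that passed with a higher level. The count was 1 of 12 with median-of-ratios, nuclear or quantile scaling and without KO replicate 3. Of 4 genes that control the turnover of E2F1 protein or of the cyclins beside it, *SKP2* passed (0.64), higher in KO, against 10.2% of all tested genes. *CCNF* (0.15), *FBXO5* (0.50) and *FZR1* (-0.05) did not pass. Of the 4 genes, 0 passed with median-of-ratios scaling, quantile normalization or library weights, or without WT replicate 1, WT replicate 2 or KO replicate 3. With TPM scaling, with the replicate number as a block and without WT replicate 3, 2 passed.

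**Figure D4:**
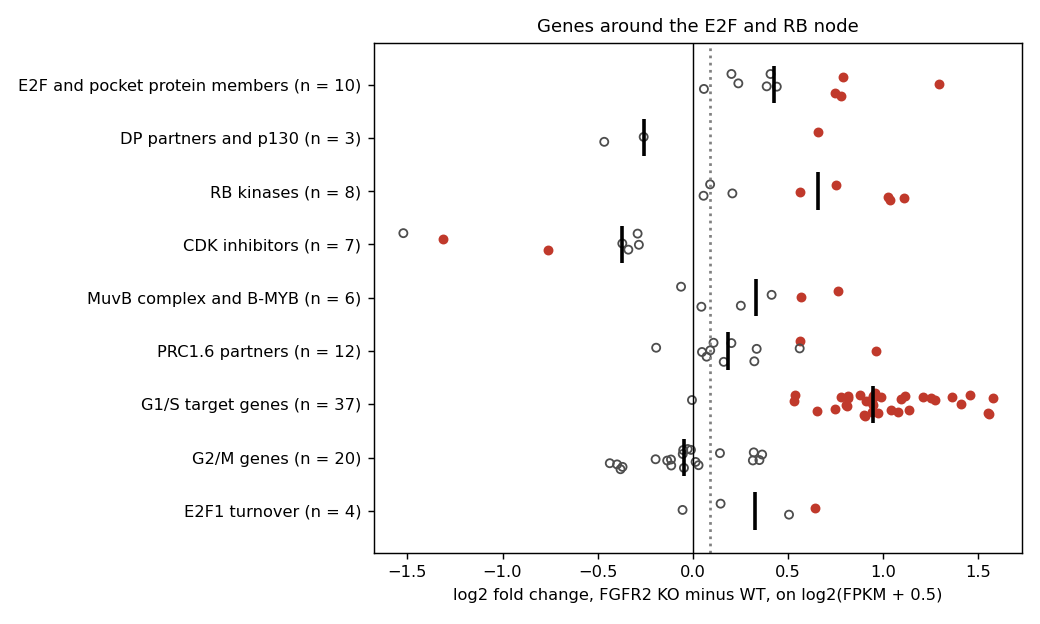
Log2 fold change (x axis, *FGFR2* KO minus WT, on log2(FPKM + 0.5)) of each gene of the 10 members and of 8 lists of partners, regulators and targets; filled points passed the unadjusted threshold, black bars are list medians and the dotted line is the median of all tested genes. The 37 G1/S target genes center on 0.95, the 20 G2/M genes on -0.05 and the 7 CDK inhibitor genes on -0.37.

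The motif of the promoters shown above was also counted around the pathway. It was present in 20 of 32 G1/S target genes with a window (62.5%), in 2 of 15 G2/M genes (13.3%), in 0 of 4 genes of the RB kinases and in 0 of 6 CDK inhibitor genes. Across all tested genes, the 676 with a match had a median log2 fold change of 0.17, and 18% of them passed the unadjusted threshold with a higher level in KO. The 9133 genes with a window but no match had a median of 0.09, and 9.7% of them passed. The 676 genes include the 20 G1/S target genes with a match. Many genes of that list were already known to be higher in KO. The difference between these shares was not tested. Among the 4 E2F and pocket protein genes with a match, *E2F1*, *E2F3* and *RBL1* were separated between the groups and *E2F2* was not. Of those with a window but no match, *E2F4*, *E2F6* and *E2F7* were separated and *RB1* was not. The KO range lay entirely above the WT range in 28.4% of the 676 genes with a match. For the 9133 genes with a window but no match this share was 18.0%.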

How the data were processed

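Libraries were prepared from poly(A)-selected RNA with a strand-specific kit. The authors trimmed reads with fastp 0.20.0, pseudoaligned them with kallisto 0.46.1 against GRCh38 with GENCODE gene models, and deposited FPKM per gene; how FPKM was computed is not given in the sources used here. Of 21493 genes, 18 Y copies of pseudoautosomal genes were left out, and 21400 of the remaining 21475 were given a symbol from GENCODE release 44. Low values of genes with 1 transcript were whole fragments within 0.05 in 74.5% to 77.4% of cases. The depth of each library was the one with the highest such share, so the 10% by chance holds only for a depth fixed beforehand. Because the deposited values are FPKM, limma on a log scale took the place of a count model. The comparison was made over genes whose mean reached 0.5 FPKM with limma 3.58.1 in R 4.3.3, with a mean-variance trend. In simulated libraries of 12218 genes, 41% of 100 genes changed 2-fold and 83% of 100 changed 4-fold were called, with 7.6 false calls on average. In the data 0 genes were called, and *FGFR2*, at a log2 fold change of -2.73, had an adjusted p of 0.261 with limma. The simulated shares were thus not shown to hold for the spread between these lines, and 0 calls do not mean that no gene changed. Alternatives were pseudocounts of 0.1 and 1, no filter or 2 FPKM, other scalings (TPM, median-of-ratios, quantile, nuclear genes), no trend, library weights, the replicate number as a block and each library left out. The genes and lists were chosen with earlier results of these data known. Named genes were the 10 genes, *FGFR2*, any gene of a list of up to 8 genes, and from longer lists at most 4 genes past the unadjusted threshold with the largest change; genes named outside this rule are marked in the text as chosen after their values were seen. Promoter sequences were taken from RefSeq. The values of 1 gene of the lists are not reported here.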

Additional observations from a re-analysis of the deposited data

How the results depend on the processing

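With 18 alternatives, the count of genes past both thresholds stayed at 0, except with library weights, where 1396 genes were called by limma in a fit that gave WT replicate 1 89.7% of the WT weight. *E2F1* (0.98) and *E2F3* (0.75) were among them, and *E2F2* turned to -0.0842. *E2F5* was -0.15 with chromosome medians removed (chosen once the data were known) and between -0.066 and 0.21 with a library left out, and the other 8 genes were higher in KO throughout. Of the genes past the unadjusted threshold, 81.4% were higher in KO, against 62.6% with median-of-ratios scaling. Their count, 1536 in all, ranged with a library left out from 630 (without KO replicate 3; 960 without WT replicate 1) to 2256, and that of genes without overlap, 2951 in all, was 2805 to 2858 with other scalings and, with a library left out, 3252 to 5431 (without KO replicate 2; 4862 without WT replicate 3). The median of the E2F6 polycomb partners was 0.0906 with median-of-ratios scaling and 0.0825 with quantile normalization. With a library left out it was 0.0913 to 0.24, that of the CDK inhibitors -0.57 to -0.25, and that of the G2/M genes -0.19 to 0.0112. The deviations of same-numbered libraries had correlations of -0.206, 0.225 and 0.049. Those of libraries with unlike numbers ran from -0.367 (WT replicate 3 with KO replicate 2) to 0.294 (WT replicate 3 with KO replicate 1). With 3 libraries per group these values cannot show whether the numbers mark a shared batch. With the replicate block 0 genes were called and *E2F1* was at 1.29 (adjusted p = 0.0972 with limma). The cause of these changes was not tested.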

Other observations

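WT replicate 2, the line with the lowest *E2F1*, *E2F7* and *RBL1* of all 6 libraries, also had the highest *FGFR2* (39.7 FPKM), *CDKN1C* (9.34 FPKM), *CCND2* (26.4 FPKM) and *RBL2* (65.5 FPKM). The lowest *CDKN2B* (7.07 FPKM), *CDKN1A* (38.1 FPKM) and *RBL2* (31.9 FPKM) were in KO replicate 3, which had the highest *E2F1*. These genes were set side by side after their values were seen, and with 6 lines no relation between them was tested.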
